A study of Salmo salar with 30 samples.

Results

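The 200 brightest array probes of the control distal intestine were followed across 5 plant diets in Atlantic salmon. The level of a probe was the log2 of its processed signal minus the 75th percentile of the same array, so that 0 is the 75th percentile. The 200 probes with the highest mean level over the 5 control fish, of 14841 non-control probes, are called members below. They were thus chosen by measured values of the control fish, and their control levels and their differences from control are given as description only. Spots on an array differ in sequence and labelling, so the order of 2 probes by brightness is an order of signal and not of transcript number. The arrays name probes by identifiers with no gene symbol. Of the 200 identifiers, 0 matched the gene table given for the species, so that members are reported by identifier without a gene or a function, and more than 1 probe can measure the same transcript.

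Salmon of 177 g at stocking ate their feed for 67 days at 11.2 °C, in a trial of 18 tanks. Distal intestine of 5 fish per diet was hybridised, 1 array per fish, which gave 30 arrays for 6 diets. The control feed was high in fish meal, and 3 feeds held soybean meal, either without additives, with additive package P1 (1.5% arginine and 0.01% butyrate), or with additive package P2 (0.1% β-glucan, 0.05% nucleotides and 0.01% butyrate). The 2 remaining feeds held corn gluten, alone or with P2, and the deposited names for these also mention pea, which the labels do not. The labels name no tank for a fish. Fish entered the tests as independent samples, and p-values would be too small if fish of a tank resembled each other.

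The distal intestine of salmon takes up intact proteins and nutrients through a lining of absorptive cells with large vacuoles, between mucus-secreting goblet cells, above a layer of connective tissue that holds immune cells. Soybean meal is known to inflame this segment in salmon, with shortened folds and loss of the vacuoles, whereas corn gluten is better tolerated. In intestine, as in other tissues, the most abundant messengers commonly code for parts of the ribosome, the respiratory chain and the cytoskeleton, next to products of the absorptive cell. Butyrate is a fuel of gut epithelium, arginine a precursor of nitric oxide and polyamines, β-glucan a microbial polysaccharide sensed by immune cells, and nucleotides building blocks for dividing cells. Because whole tissue was sampled, fewer cells of a type and less RNA per cell cannot be told apart. No cell type marker could be checked, since the probes have no gene names here.

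The members spanned mean control levels from 5.59 to 8.51, with a median of 6.46. The brightest was 7.58 times as bright as the dimmest, which itself lay 48.1-fold above the 75th percentile of the arrays. All 200 members were well above background on all 30 arrays and entered the fit. The brightest of their spots reached 34.1% of the lowest saturation value and 0 were saturated, so a ceiling of the scanner was not reached. Identifiers that begin with Ssa#GRASP made up 41.5% of the members and 21.3% of all probes. At the limit of the choice stood Ssa#S18866325 at rank 200, with 5.59 ± 0.61 in control (SD, n = 5), and just outside it Ssa#S31987857, the next probe by rank, also with 5.59 (SD 0.17, n = 5). Recomputed without each control fish in turn, the choice differed from the 200 in 1 to 4 members. The mean level in the fish left out was then lower by at most 0.02 than over the full choice.

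The brightest class held in corn gluten and was partly replaced in soybean meal. Outside the fish's own 200 brightest probes lay 16, 11, 10, 9 and 11 of the 200 members in control fish 1 to 5. In corn gluten fish 12, 13, 10, 14 and 16 members lay outside, and with P2 added 15, 10, 10, 9 and 14. The fish of both corn gluten diets lay within the range of the control fish that chose the list. In soybean meal fish the numbers outside were 34, 37, 39, 29 and 28. With P1 they were 41, 44, 36, 19 and 31, and with P2 30, 27, 17, 23 and 30. Each of the 15 soybean meal fish thus had more members outside than any of the 15 other fish, with the nearest at 17 against 16. By diet means, 6 and 8 members left the 200 brightest in corn gluten and corn gluten + P2, and 31, 37 and 24 left in soybean meal, soybean meal + P1 and soybean meal + P2.

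**Figure D1:**
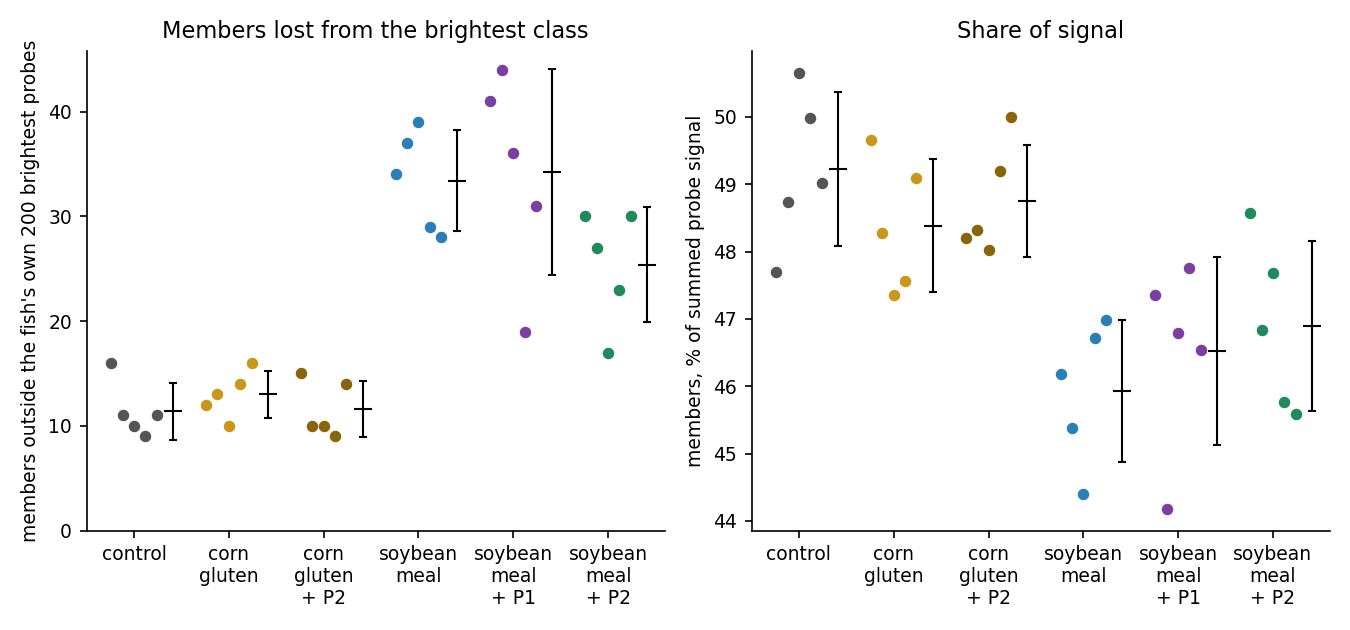
Members outside each fish's own 200 brightest probes (left, count, axis from 0) and share of the summed signal of all non-control probes held by the members (right, percent), with 1 point per fish and the mean ± SD of 5 fish in black for 6 diets; the right axis does not start at 0. In fish fed soybean meal 17 to 44 members were outside and in the other fish 9 to 16, while the shares of signal of both sets of fish overlapped.

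The 2 panels of that plot differ in how well the diets separate. The members' share of the summed signal was 49.2% ± 1.14 in control, 48.4% ± 0.98 in corn gluten and 48.7% ± 0.83 in corn gluten + P2 (SD, n = 5 each). It was 45.9% ± 1.05 in soybean meal, 46.5% ± 1.39 with P1 and 46.9% ± 1.26 with P2 (SD, n = 5 each). Fish ran from 44.2% to 48.6% with soybean meal and from 47.4% to 50.7% without, so that the ranges overlapped. The 10 brightest members held 6.54% ± 0.52 of the signal in control (SD, n = 5) and between 4.80% and 5.12% by mean in the 3 soybean meal diets. Each fish's own 200 brightest probes, members or not, held 49.5% of the signal by mean in control and 47.7% in soybean meal.

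Most members stayed bright in every fish. Of the 200, 124 were among the own 200 brightest probes of all 30 fish, and 79% were in the list of all 6 diets by mean. In all 3 soybean meal diets 23 members were outside the list, of which 15 were inside it in both corn gluten diets. In none of the 15 soybean meal fish were 8 members among the 200 brightest, against 2 members in none of the 10 corn gluten fish. The member that went furthest down was Ssa#CK886161, which ranked 190 in control, 242 in both corn gluten diets and 1398, 1734 and 860 in soybean meal, soybean meal + P1 and soybean meal + P2.

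The difference between soybean meal and corn gluten was taken between fish that did not choose the members. All differences are in log2 units from a limma fit to all 30 arrays, in which the control fish helped to set the error, and a probe passed at a Benjamini-Hochberg adjusted p below 0.05 over all probes tested. Of the 200 members 96 (48%) passed, where 24.5% of all 13577 probes did. Of these, 34 were higher with soybean meal (10.5% of all probes) and 62 lower (14% of all probes). The higher share of calls came with a smaller error: the median size of the difference was 0.26 over the members and 0.30 over all probes, while the median SE was 0.12 and 0.19. The median signed difference was −0.09 over the members and −0.02 over all probes, and became 0.06 over the members after quantile normalization. In a fit to only these diets 68 members passed, 11 higher and 57 lower, and with slide as a block 55 passed, 8 higher and 47 lower. After quantile normalization 55 were higher and 53 lower, and with the normexp background correction 7 and 62. In the authors' deposited table, those higher were 55 and those lower 59. The median over all probes moved with the setting too, to 0.16 with normexp and 0.06 in the authors' table. Shares over all probes under these other settings are not given, so the moved splits cannot be called particular to the members.

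Size and direction went together among the members. More than 2-fold lower with soybean meal were 20 members, 4 of them more than 4-fold, against 1 member more than 2-fold higher. Called or not, 10% of the members were more than 2-fold lower. By control rank it was 7.38% of the next 800 probes, 4.77% of the 3000 after those and 5.64% of the dimmer probes tested. More than 2-fold higher were 0.5%, 2.12%, 1.9% and 5.69% in the same order. The share of all probes beyond 4-fold is not given. Under the other scalings, the normexp correction and slide as a block 19 to 27 were more than 2-fold lower and 0 or 1 higher. The choice of members bears on this: a probe that is bright only with soybean meal cannot be a member. For the 200 brightest probes of the soybean meal + P1 fish, which took no part in this comparison, the calls were 52 higher and 36 lower, with 4 beyond 2-fold in each direction, and 37 of these probes were not members. For the 200 brightest over all 6 diets they were 39 higher and 52 lower, with 2 and 12 beyond 2-fold. The P1 fish also ate soybean meal, so their list favours probes bright with soybean meal, as the control list favours probes bright without it. The split of higher and lower calls thus moved with the fish that chose the list. Neither 1-sided list can decide whether lower calls prevail among bright probes.

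Ssa#CK886161 was among the members that fell most. Its level was 5.26, 5.22, 5.07, 5.05 and 5.35 in corn gluten fish 1 to 5 and 2.48, 1.43, 1.24, 2.92 and 2.70 in soybean meal fish 1 to 5. The fish of both diets did not overlap. The difference was −3.04 ± 0.41 (SE, adjusted p = 9.76e-06 in limma), which is 8.21-fold lower. In the 5 fish with P1 the level was 0.82, 0.17, 2.17, 3.38 and 2.38, the widest spread of the 6 diets for this member (SD 1.28). The 5 control fish lay between 5.26 and 6.02.

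Ssa#S30237902 fell by a like amount. It read 6.27, 5.47, 5.34, 5.61 and 5.80 in corn gluten fish and 2.62, 1.57, 2.18, 3.97 and 3.05 in soybean meal fish, again without overlap. The difference was −3.02 ± 0.48 (SE, adjusted p = 6.59e-05), or 8.14-fold lower. Its rank by mean went from 185 in corn gluten to 1054 in soybean meal. In the fish with P1 it read 2.41, 2.01, 2.42, 5.17 and 3.57, with fish 4 well above the others.

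The members that rose most did so by less. Ssa#STIR37516 read 5.79, 5.56, 6.35, 5.47 and 5.70 in corn gluten fish and 7.33, 6.93, 6.67, 6.70 and 6.69 in soybean meal fish. Every soybean meal fish lay above every corn gluten fish, and the difference was 1.09 ± 0.19 (SE, adjusted p = 0.000214), or 2.13-fold. Its mean rank moved from 171 to 66. Ssa#GRASP209154937 read 6.48, 6.26, 6.02, 5.94 and 5.80 with corn gluten and 7.02, 7.06, 6.99, 6.65 and 7.01 with soybean meal. It rose by 0.85 ± 0.15 (SE, adjusted p = 0.00021), or 1.80-fold, also without overlap.

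**Figure D2:**
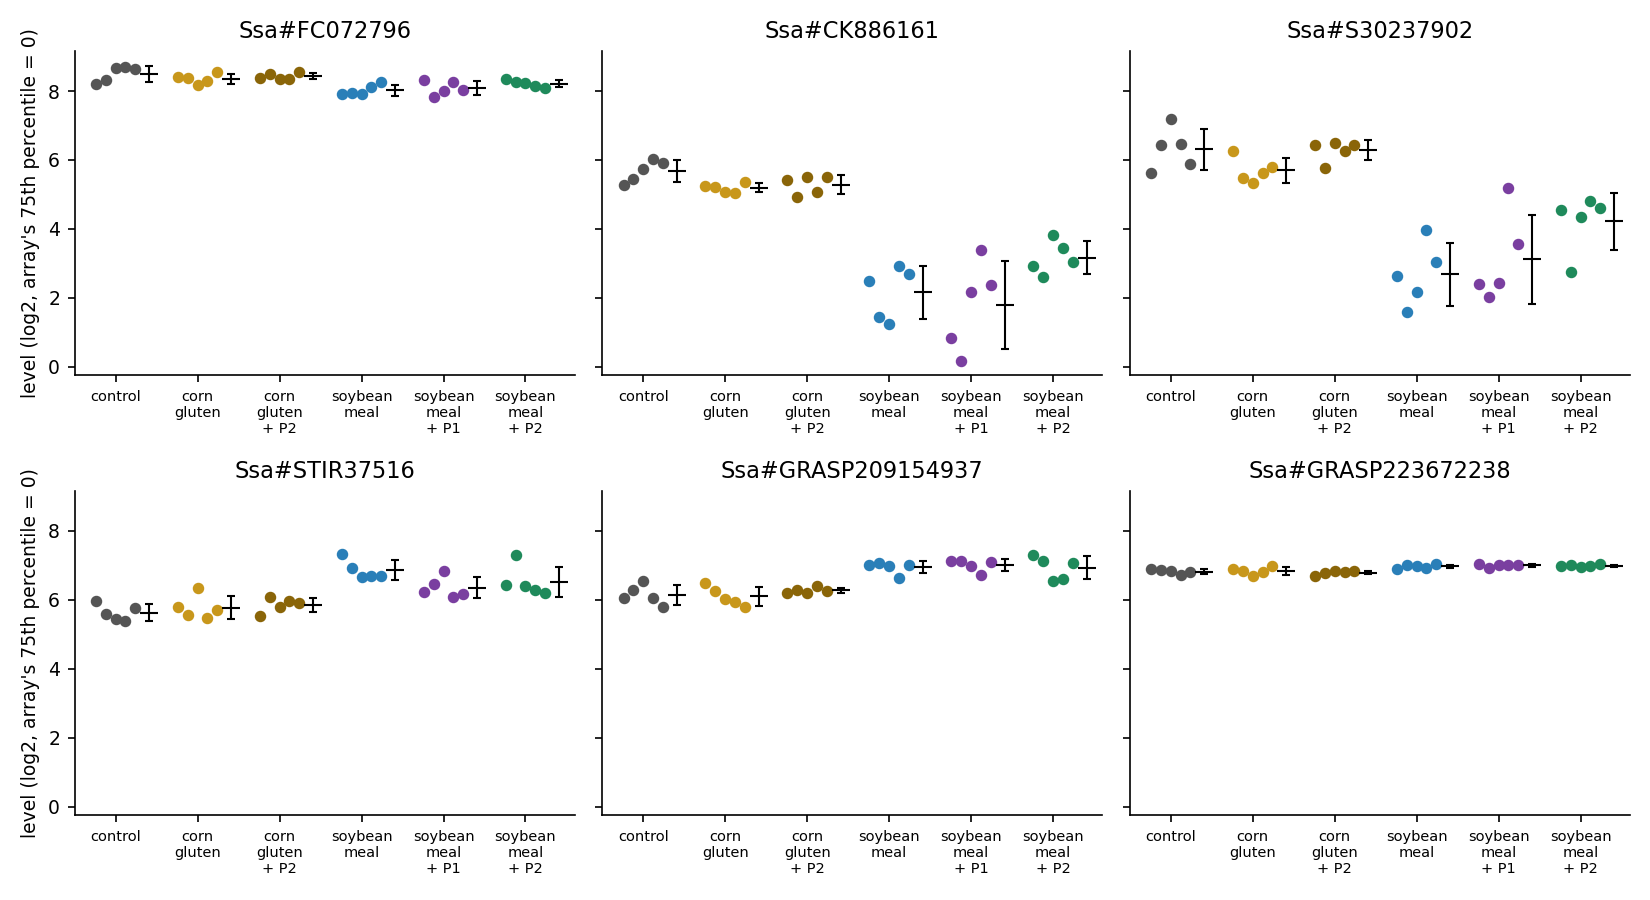
Level of 6 members (log2 signal, 0 = 75th percentile of the array) in each fish of 6 diets, with 1 point per fish and the mean ± SD of 5 fish in black. Ssa#CK886161 and Ssa#S30237902 lay lower in every fish fed soybean meal than in any fish of the other 3 diets. Ssa#STIR37516 and Ssa#GRASP209154937 were higher by 1.09 and 0.85 by mean with soybean meal than with corn gluten. Diet means ran from 8.03 to 8.51 for Ssa#FC072796 and from 6.79 to 7.0 for Ssa#GRASP223672238.

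The 3 brightest members of control stayed among the 10 brightest probes of soybean meal by mean, and 2 of them were called lower there than in corn gluten. Ssa#FC072796, the brightest in control with 8.51 ± 0.23, had 8.36 ± 0.14 in corn gluten and 8.03 ± 0.16 in soybean meal (SD, n = 5 each). In corn gluten fish it read 8.40, 8.37, 8.18, 8.28 and 8.56, and in soybean meal fish 7.91, 7.94, 7.91, 8.11 and 8.26, which overlapped. It fell by 0.33 ± 0.11 (SE, adjusted p = 0.025) with soybean meal and was still first or second by mean in all 6 diets. Omy#S15286992, at rank 2 in control, read 8.31, 8.17, 8.06, 8.13 and 8.35 with corn gluten and 7.64, 7.63, 7.63, 7.88 and 8.02 with soybean meal. These groups did not overlap, the difference was −0.44 ± 0.12 (SE, adjusted p = 0.00833), and its rank by mean in soybean meal was 10. Ssa#EL698819, at rank 3 in control, had a difference of −0.19 ± 0.11 (SE, adjusted p = 0.239) and was the brightest probe in soybean meal by mean, at 8.10 ± 0.11 (SD, n = 5).

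The same contrast of plant proteins was measured a second time in 10 other fish, all fed P2. Soybean meal + P2 against corn gluten + P2 gave 83 members past the threshold (41.5%), where 18.9% of all probes passed. Of the members 47 were higher (8.88% of all probes) and 36 lower (9.99% of all probes). More than 2-fold lower were 9 members and more than 2-fold higher 0. Called or not, 4.5% of the members were more than 2-fold lower. By control rank it was 4.1% of the next 800 probes, 3.03% of the 3000 after those and 7.0% of the dimmer probes tested. More than 2-fold higher were 0%, 0.9%, 1.4% and 3.04% in the same order, so members more than 2-fold lower were not set apart from other probes by their share. The median difference was 0.02 over the members and −0.02 over all probes, and it was −0.09 over the members with slide as a block. The diets shared no slide. The split of 47 higher and 36 lower became 69 and 28 with median scaling and 6 and 27 with slide as a block, where 33 members passed. In a fit to only these diets 52 passed, 21 higher and 31 lower. The median over all probes was 0.07 with median scaling and −0.05 with slide as a block, and shares over all probes under these settings are not given.

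Across the 200 members the differences of both comparisons, which have no fish in common, correlated at r = 0.944 (Spearman 0.933), and 178 (89%) had the same sign. Over all 13577 probes r was 0.307 and 64.2% had the same sign. Members of 1 fish share an array and may share transcripts, so the correlations are given without a p-value. The part of the larger SE over all probes (median 0.19, against 0.12 over the members) in the lower r was not tested. Of the 62 members lower without P2, 34 were also called lower with P2, which is 54.8% of the first list and 94.4% of the 36 in the second. Of the 34 higher members 30 were called higher again, 88.2% of the first list and 63.8% of the second. In each direction 0 members passed with opposite sign. The share of repeats over all probes called without P2 is not given, so these repeats cannot be called particular to the members.

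**Figure D3:**
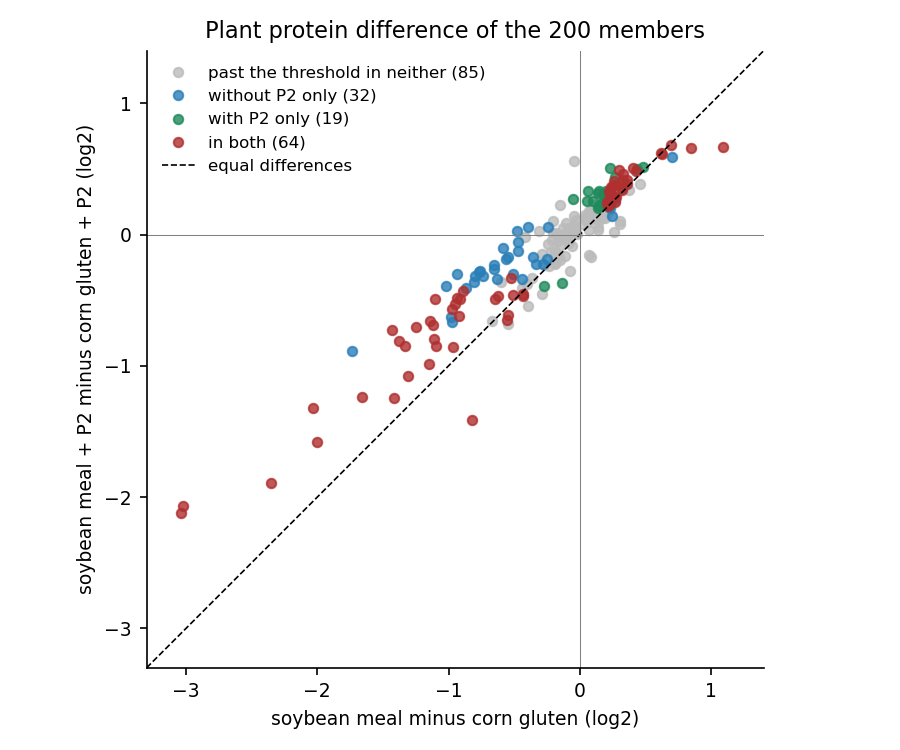
Difference between soybean meal and corn gluten without P2 (horizontal axis, log2) and with P2 (vertical axis, log2) for the 200 members, coloured by whether they passed the threshold in both comparisons, 1 or neither. The points follow 1 band (r = 0.944) that lies mostly above the dashed line of equal differences at the left, where the members are lower with soybean meal.

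In that plot most of the lower members lay above the line of equal differences. The 62 members lower without P2 had a median difference of −0.85 there and −0.48 with P2. The 34 higher members had 0.27 and 0.36. The members were split on the first comparison, which pulls its own medians away from 0, so the shrinkage from −0.85 to −0.48 is not free of that choice. The direct test of this change, the effect of P2 with soybean meal minus its effect with corn gluten, passed in 0 members in limma, where 0.103% of all probes passed. At an unadjusted p below 0.05 there were 21 of the 200 members and 2385 of all 13577 probes. A fit to only its 4 diets called 1 member. The median of this difference was 0.09 over the members and 0.01 over all probes, and it was 0.0028 over the members with slide as a block.

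With P2, Ssa#CK886161 read 5.43, 4.93, 5.51, 5.06 and 5.49 in corn gluten fish and 2.92, 2.60, 3.83, 3.45 and 3.03 in soybean meal fish. The groups did not overlap, and the difference was −2.12 ± 0.41 (SE, adjusted p = 0.00101), or 4.34-fold lower. Ssa#S30237902 read 6.45, 5.78, 6.49, 6.26 and 6.43 against 4.54, 2.74, 4.36, 4.82 and 4.62, a difference of −2.07 ± 0.48 (SE, adjusted p = 0.00463). With slide as a block it no longer passed (−1.90, adjusted p = 0.0981). Both were also the lowest of the first comparison.

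Ssa#S32581291 had the highest difference with P2. It read 6.65, 6.75, 6.83, 6.70 and 6.80 in corn gluten + P2 fish and 7.86, 7.36, 7.15, 7.32 and 7.45 in soybean meal + P2 fish. It rose by 0.68 ± 0.16 (SE, adjusted p = 0.00446) without overlap, and did not pass with slide as a block (0.59, adjusted p = 0.106). Ssa#STIR37516 read 5.52, 6.09, 5.80, 5.97 and 5.89 against 6.43, 7.29, 6.40, 6.30 and 6.19. Its difference was 0.67 ± 0.19 (SE, adjusted p = 0.0184). It did not pass without soybean meal + P2 fish 2 (0.47) or corn gluten + P2 fish 1 (0.58), in a fit to only these diets (adjusted p = 0.0599) or with slide as a block (adjusted p = 0.105).

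The 20 members more than 2-fold lower with soybean meal than with corn gluten are a tail set by that threshold. They ranked from 5 to 200 in control, so they came from all parts of it, and 8 of their identifiers began with Ssa#GRASP. In the fish with P2, which did not choose them, all 20 were lower with soybean meal, 18 passed the threshold and 8 were more than 2-fold lower. Their differences lay between −2.12 and −0.39, with a median of −0.87. Of all probes tested 9.99% were called lower there. How often other probes more than 2-fold lower without P2 were lower again is not given, so the repeat cannot be called particular to the members. Median levels were 6.42 in control, 6.31 in corn gluten and 6.28 in corn gluten + P2. They were 4.90 in soybean meal, 4.91 with P1 and 5.29 with P2. Fish of the P1 and P2 diets took no part in the choice of these 20, and all 20 had a negative difference between P1 and P2, with a median of −0.41. Of them 1 passed the threshold. The other 180 members had a median of −0.06 in that comparison, and 108 had a negative difference. Members of 1 fish share an array, so such counts of members are not counts of separate observations. The mean level of the 20 members ran from 3.88 to 5.45 between fish with P1 and from 5.14 to 5.72 with P2, so the fish overlapped.

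Fish of a diet differed in the mean level of these 20 members. It was 4.56, 4.49, 4.44, 5.15 and 5.02 in soybean meal fish 1 to 5, and 4.09, 3.88, 4.58, 5.45 and 5.01 with P1. With P2 it was 5.20, 5.17, 5.72, 5.36 and 5.14. The range between the fish with P1 was 1.57, and the range for the mean of the other 180 members in the same fish was 0.27. The 180 include members higher and members lower with soybean meal, which can offset each other in a mean. These ranges thus do not give the spread of single members. Among those fish, fish 4 was the highest for 17 of the 20 members and fish 2 the lowest for 16. In soybean meal, fish 4 was the highest for 11 members and fish 5 for 9, and fish 3 the lowest for 11. With P2 fish 3 was the highest for 14, while the lowest was fish 1 for 8 members, fish 2 for 6, fish 5 for 4 and fish 4 for 2.

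The range between fish was 0.65 in control, 0.37 in corn gluten and 0.43 in corn gluten + P2, against 0.71 in soybean meal, 1.57 with P1 and 0.59 with P2. In control fish the mean of the 20 members was 6.12, 6.22, 6.62, 6.77 and 6.69, in corn gluten fish 6.22, 6.30, 6.23, 6.32 and 6.59, and with P2 6.60, 6.17, 6.40, 6.29 and 6.46. Corn gluten fish 5 was the highest for 16 of the 20 members, and corn gluten + P2 fish 2 the lowest for 15. In control the highest was fish 5 for 9 members, fish 4 for 7 and fish 3 for 4, and the lowest was fish 1 for 12. Slide moved with this order in part: control fish 1 and 2 shared slide 1, and fish 1 and 2 with P1 shared slide 6. On slide 6 the 2 corn gluten fish were at 6.23 and 6.32 and the control fish was at 6.69. Soybean meal + P2 fish 5, also on slide 6, was the lowest of its diet at 5.14. The part of slide in these orders was not tested.

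**Figure D4:**
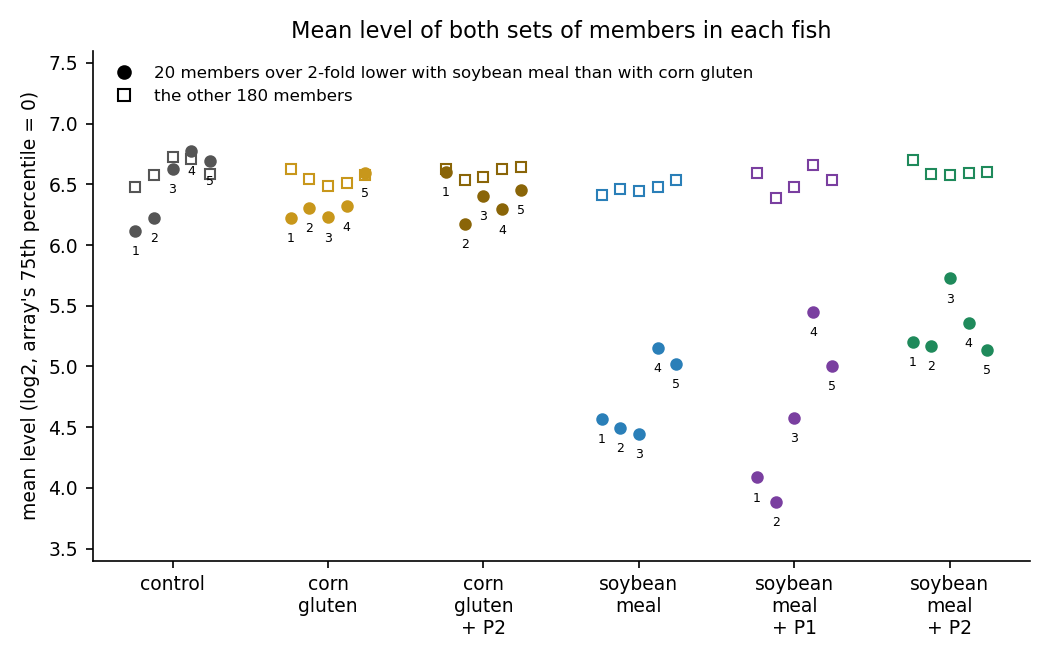
Mean level (log2 signal, 0 = 75th percentile of the array) of the 20 members more than 2-fold lower with soybean meal than with corn gluten (filled circles, fish number beneath) and of the other 180 members (open squares) in each fish of 6 diets; the axis does not start at 0. In soybean meal fish the circles lie between 3.88 and 5.72 and in all other fish between 6.12 and 6.77. The squares, means over more members, lie between 6.39 and 6.73.

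Within a plant protein few members passed the threshold for a package, and few of all probes did. Soybean meal + P1 against soybean meal gave 0 members past the threshold in limma (0.0221% of all probes passed). At an unadjusted p below 0.05 there were 14 of the 200 members and 1435 of all 13577 probes. The lowest adjusted p of a member was 0.145. Corn gluten + P2 against corn gluten, diets that shared no slide, also gave 0 members (0% of all probes), with a lowest adjusted p of 0.386. There 8 of the 200 members and 1028 of all 13577 probes had an unadjusted p below 0.05. Leaving out soybean meal + P1 fish 5 gave 1 member lower in the first of these. The median differences were 0.07 and 0.02, and the middle 50% of members lay between −0.001 and 0.13 and between −0.05 and 0.13.

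Soybean meal + P2 against soybean meal gave 1 member past the threshold, where 1.24% of all probes passed. This was Ssa#GRASP209733023, which read 5.28, 5.55, 5.66, 5.50 and 5.55 with soybean meal and 5.77, 5.91, 5.70, 5.86 and 5.98 with P2. The groups did not overlap, and it rose by 0.33 ± 0.08 (SE, adjusted p = 0.0431). The call was lost under 6 of 10 other settings and without 7 of the 10 fish, with adjusted p up to 0.385. Of the 200 members 161 had a positive difference, and the median difference was 0.16 against 0.03 over all probes. An unadjusted p below 0.05, with either sign, was seen in 57 of the 200 members and 2993 of all 13577 probes. That median was 0.01 after quantile normalization and 0.07 with slide as a block.

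The packages compared directly within soybean meal gave 1 member, lower with P1, where 0.192% of all probes passed. Ssa#S47729160, at rank 9 in control, read 4.29, 2.20 and 5.43 in soybean meal + P1 fish 1, 2 and 5. Its spots in fish 3 and 4 (5.09 and 5.64 as measured) were marked as outliers by the scanner software and left out of the fit. With P2 it read 6.81, 6.26, 7.44, 6.60 and 6.36, and the fish did not overlap. The difference was −2.72 ± 0.43 (SE, adjusted p = 0.00943), and −2.16 with the outlier spots kept (adjusted p = 0.0345). It did not pass with slide as a block (adjusted p = 0.117) or in a fit to only these diets (adjusted p = 0.137). Without soybean meal + P1 fish 4, 13 members passed and all 13 were lower with P1. The share of all probes that passed in that fit is not given here, so the rise cannot be called one of the members alone. Among the fish with P1, fish 4 had the highest mean of the 20 members above.

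In control this probe had read 7.70, 7.48, 8.21, 8.35 and 8.26, and with soybean meal alone 5.46, 5.60, 6.67 and 5.73 in fish 2 to 5, where the spot of fish 1 was left out. By diet means over all spots, outlier spots included, it went from rank 9 in control to 136 in soybean meal, 345 with P1 and 80 with P2. In corn gluten it ranked 9.

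Against control, whose fish chose the members, the values are given as description. With soybean meal 107 members passed (30.3% of all probes), 29 higher (12.9% of all probes) and 78 lower (17.4%). Soybean meal and control shared no slide, and with slide as a block 82 members passed, 20 higher and 62 lower. The share of all probes under that setting is not given. With P1 57.5% of the members passed (29.9% of all probes), 48 higher (14.8%) and 67 lower (15.1%), and with P2 81 passed (17.1% of all probes), 37 higher (9%) and 44 lower (8.08%). With corn gluten 0 members passed (0.0663% of all probes) and with corn gluten + P2 0 (0.103% of all probes). At an unadjusted p below 0.05 these were 6 and 22 of the 200 members, and 822 and 1554 of all 13576 probes. The median differences from control were −0.14 in soybean meal, −0.09 with P1, 0.02 with P2, −0.06 in corn gluten and −0.05 in corn gluten + P2. All 5 share the control fish. The split of higher and lower members moved with the scaling, to 64 and 58 for soybean meal, 66 and 55 for P1 after quantile normalization, and 49 and 32 for P2 with median scaling.

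The lowest differences from control were those of Ssa#S30237902 and Ssa#CK886161 with soybean meal, at −3.63 and −3.52, and of Ssa#S47729160 and Ssa#CK886161 with P1, at −4.03 and −3.89. The value of Ssa#S47729160 left out the outlier spots of P1 fish 3 and 4. With outlier spots kept it was −3.47, and Ssa#CK886161 at −3.89 was then the lower of both. With P2, Ssa#CK886161 and Ssa#S30237902 had −2.51 and −2.10. The highest were Ssa#STIR37516 at 1.23 and Ssa#GRASP209154937 at 0.79 with soybean meal, and Ssa#S31963778 at 0.89 and Ssa#GRASP209154937 at 0.86 with P1. With P2, Ssa#S31963778 had 1.09 and Ssa#S35492043 0.97. Ssa#S31963778 was also above its control mean of 5.98 in both corn gluten diets, at 6.30 ± 0.39 and 6.68 ± 0.20 (SD, n = 5 each).

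Between fish of a diet the members were steadier than most probes. The median SD over the members was 0.18 in control, which chose them, 0.14 in corn gluten, 0.14 with P2 added, 0.15 in soybean meal, 0.18 with P1 and 0.17 with P2. Over all probes tested it lay between 0.26 and 0.28 in the 6 diets. An SD of 0.18 corresponds to 1.13-fold. Pooled within the 5 plant diets the SD of a member ran from 0.06 to 0.90 with a median of 0.17, against 0.30 over all probes. It was below 0.25 for 148 members and above 0.5 for 8 (4%), where 25.4% of all probes were above 0.5.

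Spread fell with brightness, so this steadiness was shared with other bright probes. By rank in control, the median pooled SD was 0.17 for the members, 0.19 for the next 800 probes, 0.20 for the 3000 after those and 0.36 for the dimmer probes tested. The share called between soybean meal and corn gluten followed the same order, at 48%, 43.8%, 31.4% and 20.2%. The median size of the difference did not, at 0.26, 0.30, 0.25 and 0.32. Differences beyond 2-fold, called or not, were lower with soybean meal in 10% of the members, 7.38% of the next 800, 4.77% of the 3000 after those and 5.64% of dimmer probes. They were higher in 0.5%, 2.12%, 1.9% and 5.69%. These classes are ranks in control, so a probe bright only with soybean meal falls in a dimmer class. The order of the lower and higher shares is thus not free of that ranking.

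The steadiest member was Ssa#GRASP223672238, with a pooled SD of 0.06. It read 6.89, 6.84, 6.68, 6.80 and 6.98 in corn gluten, 6.70, 6.78, 6.84, 6.81 and 6.82 in corn gluten + P2 and 6.90, 7.01, 6.99, 6.93 and 7.03 in soybean meal. With P1 it read 7.04, 6.93, 7.0, 7.01 and 7.02, and with P2 6.98, 7.01, 6.95, 6.99 and 7.03. All 10 soybean meal fish with a package lay above all 5 corn gluten + P2 fish. Its difference between the plant proteins was 0.20 ± 0.06 with P2 (SE, adjusted p = 0.0198), or 1.15-fold, and 0.14 ± 0.06 without (SE, adjusted p = 0.101).

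Ssa#S47728779 followed with a pooled SD of 0.07. It read 6.82, 6.69, 6.74, 6.65 and 6.69 in corn gluten and 7.04, 6.96, 6.91, 6.86 and 6.93 in soybean meal. The groups did not overlap, and it rose by 0.22 ± 0.07 (SE, adjusted p = 0.0219), or 1.17-fold. With P2 it rose by 0.26 ± 0.07 (SE, adjusted p = 0.0121).

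Members that varied most between fish were mostly among those that fell. Omy#S15286673 had the highest pooled SD, 0.90. It read 7.0, 6.46, 6.78, 6.89 and 7.15 in corn gluten, 4.27, 3.99, 5.37, 5.53 and 5.14 in soybean meal and 1.52, 2.35, 4.58, 4.87 and 5.40 with P1. Its SD was 0.26 in corn gluten, 0.69 in soybean meal and 1.70 with P1, so that its spread was wide where its level was low. The difference between soybean meal and corn gluten was −2.0 ± 0.51 (SE, adjusted p = 0.00549). Ssa#S30237902 was next with a pooled SD of 0.82. Of the 8 members above 0.5, 6 belonged to the 20 members more than 2-fold lower with soybean meal.

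**Figure D5:**
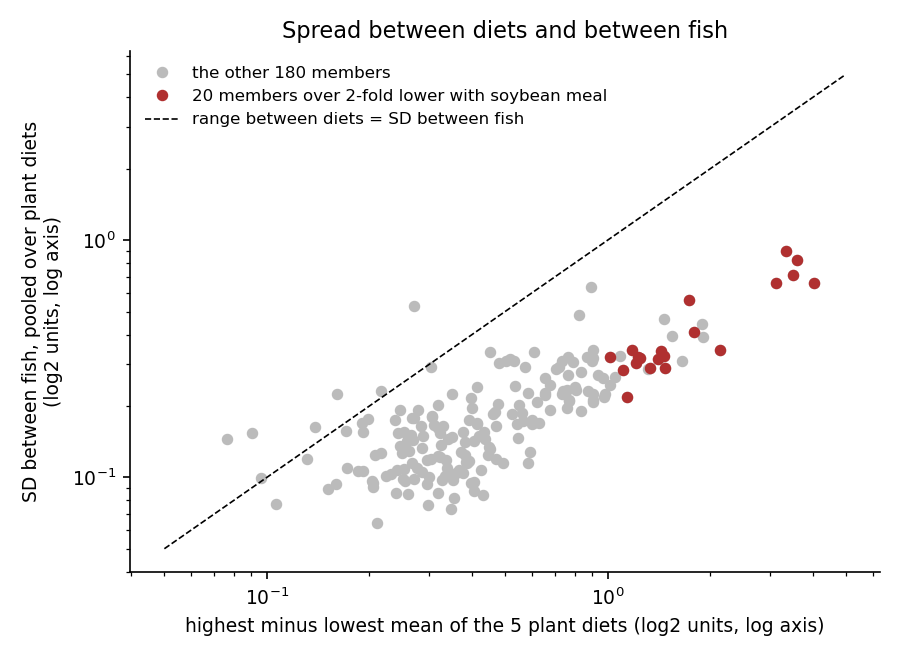
SD between fish pooled within the 5 plant diets (vertical axis) against the highest minus the lowest of the 5 plant diet means (horizontal axis) for each of the 200 members, both in log2 units on log axes. The 20 members more than 2-fold lower with soybean meal (red) lie at the right because of how they were chosen, with SDs from 0.22 to 0.90. Above the dashed line, where both spreads are equal, lie 7 members.

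The plot of both spreads leaves out the control fish, which chose the members. Over its 5 plant diets the highest and lowest diet means of a member were 0.42 apart by median, and more than 1 apart for 29 members. With control included, the highest and lowest of the 6 diet means were less than 0.25 apart for 29 members and less than 0.5 apart for 112. The median was then 0.45, and 40 members were more than 1 apart. Over the 5 plant diets the range was smaller than the SD between fish for 7 members and larger for the others. The mean of 5 fish has an error of its own, so a range of means is above 0 even for a member that no diet changes. Such a range can also reach or exceed the SD between fish. The line of equal spreads thus does not mark off the members that a diet changed. The 20 members that fell most had a median range of 1.45 and a median SD of 0.33, the other 180 members 0.39 and 0.16.

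Soybean meal and corn gluten without P2 were on the same slide only on slide 4, with 1 and 3 fish. There all 96 members called over all fish had the same direction, although these fish had helped to choose the 96, and the median of the 20 members was −1.18 against −1.35 over all fish. On slide 6, with 2 soybean meal + P1 fish and 1 soybean meal + P2 fish, the 20 members had a median of −0.61 for P1 against P2, where it was −0.41 over all fish. For P2 against soybean meal alone the median was 0.48 on slide 4 and 0.48 over all fish. For P1 against soybean meal alone it was 0.48 on slide 3 and 0.25 on slide 5, but −0.05 over all fish, so that the direction within these slides was opposite to that over all fish.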

How the data were processed

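Distal intestine of 30 Atlantic salmon was measured on 1-colour Agilent arrays, 5 fish for each of 6 diets. Per the file headers, arrays were read with Agilent Feature Extraction 12.0.1.1, and the deposited processed signal is an intensity, background-subtracted by the authors' software within the array and not scaled between arrays. Per the file headers, the other flags used mark spots well above background, saturated or outlying. The authors also deposited a table of intensity values, used as an alternative. The precision is limited by the number of arrays.

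From these, log2 signal minus each array's 75th percentile over non-control probes was computed. The choice of members, all ranks and the shares of signal used all spots. The levels given by diet and the tests treated outlier spots as missing, 25 of 6000 spots of members (598 over all probes). The test kept a probe if at least 5 arrays flagged it well above background, so that 13577 were tested and 1264 left out. Differences were fitted with limma 3.58.1 in R 4.3.3 (1 coefficient per diet, eBayes without trend), and the script was tested on simulated data. In 12 comparisons p-values were adjusted by Benjamini-Hochberg over all probes tested, with a threshold of 0.05.

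The members and lists were chosen with earlier results of these data known. Planned gene lists and cell type markers could not be used, since 0 of 14841 identifiers matched the gene table. By the fallback rule, the probes named are the 3 brightest members, up to 2 highest and 2 lowest called members per comparison, the 2 lowest and 2 highest pooled SDs, and the members at the limit of the choice. The files hold no mean signal, so the normexp alternative (offset 50) used the median signal and median background in place of the planned columns. The other alternatives were median scaling, quantile normalization, the authors' table, slide or fish number as a block, no filter on dim probes, eBayes with trend, outlier spots kept, only the diets compared, each fish left out, and other choices of members. Choices of members from other diets were added after seeing the data.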

Additional observations from a re-analysis of the deposited data

Results flagged for a closer look

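In a group of 5 fish, a highest or lowest fish is named here if its gap to the next fish was over 0.71 of the group's whole range. About 1 in 20 groups would show such a fish by chance, and 118 groups of 5 fish were looked at. Ssa#S30237902 was far below the others in soybean meal + P2 fish 2, at 2.74, where the other 4 fish lay between 4.36 and 4.82. The same fish was far above the others for Ssa#STIR37516, at 7.29 against 6.19 to 6.43. Ssa#GRASP209154937 was low in soybean meal fish 4, at 6.65 against 6.99 to 7.06. Control fish 1 had 16 members outside its own 200 brightest probes, where the other control fish had 9 to 11. Over all 200 members a fish stood apart in this way for 3 members in control, 17 in corn gluten, 10 in corn gluten + P2, 10 in soybean meal, 12 with P1 and 11 with P2. Of the 17 in corn gluten 11 were in fish 1, and of the 12 with P1 8 were in fish 4.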

How the results depend on the processing

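Of the results on single named probes 471 kept direction and side of the threshold over all alternatives, 21 no longer passed and 0 reversed. Of the summary results 591 stayed and 47 moved. With an eBayes trend, no filter on dim probes or only the diets compared, a difference itself cannot change. With fish number as a block it changed little or not at all. Directions and medians from these settings count among the results that stayed, so these numbers do not measure how robust the differences are. The share of members called moved for soybean meal against corn gluten with slide as a block (27.5%), and for the same contrast with P2 to 16.5% with slide as a block and to 26% with only the diets compared. Soybean meal + P2 against control moved to 23% with only its diets. Soybean meal + P2 against soybean meal had 0% with median scaling, quantile normalization, the authors' table, normexp, slide as a block, only its diets or the 100 brightest members, 1% with the 400 brightest and 2% with an eBayes trend. P1 against P2 within soybean meal had 0% with slide as a block or only its diets, 1% of the 100 brightest and 0.25% of the 400 brightest. The effect of P2 with soybean meal minus that with corn gluten had 0.5% with only its diets. Of the 400 brightest, 0.251% passed in corn gluten and in corn gluten + P2 against control. Shares of all probes called under these settings are not given, so the moves cannot be called particular to the members.

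Median differences of the members moved as follows. With slide as a block they were −0.0906 for soybean meal + P2 against corn gluten + P2, 0.0676 for P2 within soybean meal, 0.00737 for P1 against P2 and 0.00276 for the difference of P2 effects. After quantile normalization they were 0.0636 for soybean meal against corn gluten, 0.0140 for P2 within soybean meal, and 0.0368 and 0.0334 for soybean meal and soybean meal + P1 against control. Median scaling gave 0.117 for soybean meal + P2 against corn gluten + P2 and −0.00888 for soybean meal + P1 against control. The authors' table gave 0.0601 for P2 within soybean meal and −0.00740 for soybean meal against control, and normexp gave 0.0945 for soybean meal + P2 against control. Normexp moved the median of all probes to 0.16 for soybean meal against corn gluten and to −0.12 with P2. The share of higher calls among those made for soybean meal against corn gluten was 35.4%, and became 50.9% after quantile normalization, 48.2% in the authors' table, 10.1% with normexp and 14.5% with slide as a block. The cause was not tested.

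Leaving out 1 fish at a time, the share of members called ran from 38% to 46.5% for soybean meal against corn gluten and from 30.5% to 41% with P2. No share over all probes is given for these fits. The share of members ran from 0% to 1.5% for P2 within soybean meal, and from 0.5% to 6.5% for P1 against P2. It ran from 0% to 0.5% for P1 within soybean meal, for the difference of P2 effects and for corn gluten + P2 against control.

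Over 75 pairs of fish with the same number in different diets, deviations from the diet means correlated from −0.40 to 0.39. Their median was 0.03, and 24 were above 0.1. Over 300 pairs with other numbers the correlations ran from −0.43 to 0.42 with a median of −0.002, and 71 were above 0.1. Fish number was not used as a pairing in the main fit. With fish number as replicate block 47% of members passed for soybean meal against corn gluten, 43% with P2 and 1.5% for P2 within soybean meal. The shares over all probes in that fit are not given, and 0 of the named probes' calls was lost.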
